A study of Mus musculus with 30 samples.

Results

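The livers compared here are those taken at sampling point 3 of an insulin time course, 3 from insulin-injected and 3 from control mice, so 6 of the 30 libraries of the series. All mice were C57BL/6J, an inbred laboratory strain, 10 week old. Both groups had fasted for 12 to 16 h, and then received an intraperitoneal injection of human insulin at 0.7 U/kg or of phosphate-buffered saline (PBS), the vehicle. RNA came from the left lobe of the liver. The series covers 5 sampling points over 4 h, whose clock times are not given in the labels, so point 3 is named by its number. Sequencing was of poly(A) RNA, and values were deposited as FPKM, fragments scaled to transcript length and library size. Of the 29117 genes in the table, 12051 reached 1 FPKM in at least 3 of the 6 libraries and were tested. Of these, 50 passed only through the 3 insulin libraries and 130 only through the 3 PBS libraries, with every library of the other group below 1 FPKM. Such a gene had to differ between groups, so its values are a description. Among the genes named below these include Nr4a1, Nr4a3, Atf3, Jaml and Chaf1b on the insulin side. On the PBS side they include Foxq1, Snurf and Ankrd49. Differences are given as insulin minus PBS on the log2(FPKM + 1) scale, which understates the change of low genes. A gene is called where limma's moderated test, two-sided, gave a Benjamini-Hochberg adjusted p under 0.05 over all 12051 genes.

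Insulin lowers blood glucose and, through the insulin receptor, PI3K and Akt, restrains glucose release by hepatocytes and favours storage. Glucagon and catecholamines, hormones that rise when glucose falls, act in the other direction: they raise cyclic AMP, which activates protein kinase A and the transcription factor CREB. CREB binds the cyclic AMP response element, TGACGTCA, or its shorter core TGACG, and its target genes include those of the coactivator Ppargc1a and of the Nr4a nuclear receptors. No blood values are used here, and bulk liver RNA does not separate fewer cells of a type from less RNA per cell.

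Of the 12051 genes, 1364 were called (11.3%), of which 311 were higher (2.58%) and 1053 lower (8.74%) in insulin. A difference of at least 1 was reached by 66 of the higher genes (0.548% of all) and 89 of the lower genes (0.739%). The 3 insulin libraries did not overlap the 3 PBS libraries for 4532 genes (37.6%), with insulin above for 977 (8.11%) and below for 3555 (29.5%). The number of calls rested on each library. Leaving out insulin replicate 1, 2 or 3 gave 791 (6.56%), 661 (5.49%) or 890 calls (7.39%), and leaving out PBS replicate 1, 2 or 3 gave 728 (6.04%), 640 (5.31%) or 607. Called in all of these 6 fits were 117 of the higher and 229 of the lower genes. The balance of directions rested on the scaling. Over all genes the median difference was -0.15. Scaling each library by its median ratio set this to -0.01 and gave 704 higher (5.84%) and 517 lower genes (4.29%), and quantile normalization gave 735 (6.1%) and 564 (4.68%). All 311 higher genes were called under both, against 500 of the 1053 lower genes.

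GC content moved with the comparison. The median GC of the longest annotated transcript was 49.4% over all genes tested, 44.5% among higher genes and 54.4% among lower genes. From the quintile of genes with the lowest GC to the quintile with the highest, the median difference went from 0.09 through -0.04, -0.14 and -0.26 to -0.37. The share called lower went from 1.16% to 20.2% and the share called higher from 5.8% to 0.748%. Each library's GC tilt, the median deviation of its high-GC quintile from the mean of all libraries minus that of its low-GC quintile, was 0.26 to 0.29 in the PBS libraries of point 3 and -0.20 to -0.16 in the insulin libraries. Over the whole series it was -0.31 to 0.0 in insulin libraries and -0.24 to 0.42 in PBS libraries. At point 3 the insulin libraries carried lane numbers 1 and 2 and the PBS libraries 3, 4 and 5, so the effects of lane number and of treatment cannot be told apart. After a correction of each library for GC content, chosen after the data were seen, 405 genes were higher (3.36%) and 249 lower (2.07%), among them 260 of the 311 and 233 of the 1053. The correction removes any difference that varies with GC, whatever its source. Calls that it ended are named below beside the gene.

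**Figure D1:**
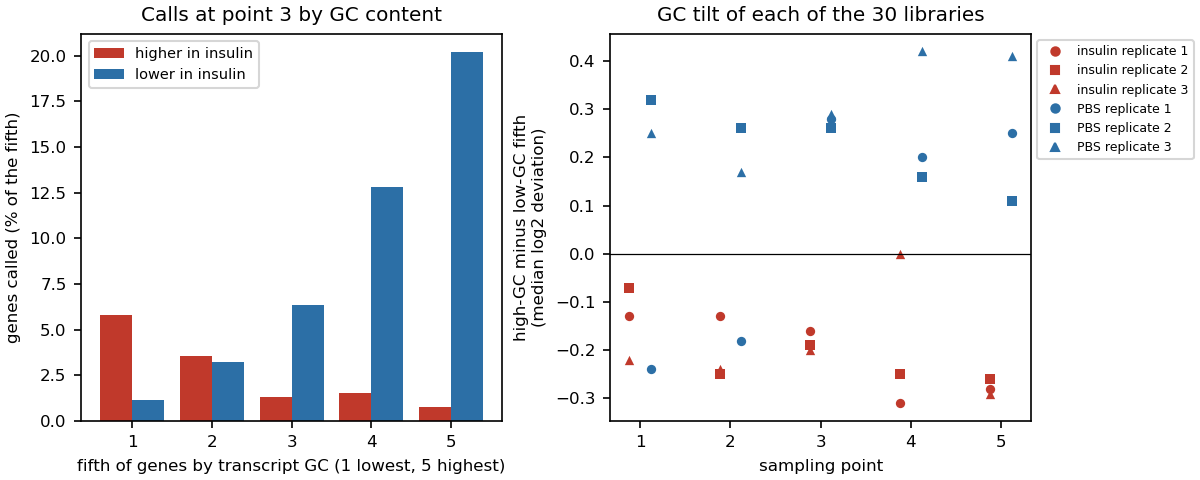
Left, share of genes called higher (red) or lower (blue) in insulin at point 3 in each quintile of the tested genes by GC content of the longest transcript, with lower calls in 1.16% of the lowest quintile and 20.2% of the highest. Right, GC tilt of each library by sampling point on the log2 scale, where the insulin libraries of point 3 lie between -0.20 and -0.16 and the PBS libraries between 0.26 and 0.29.

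Both groups carried hepatocyte RNA: the 14 hepatocyte markers in the table, led by albumin and apolipoproteins, summed to 53200 to 65800 FPKM in each of the 6 libraries. PBS replicate 3 also held transcripts of the small intestine. Its 15 measured markers of intestinal secretory cells summed to 175 FPKM, against at most 23.3 in the other 29 libraries, with 43.1 FPKM of the Paneth cell defensin Defa24, 34.6 of Reg3b and 25.2 of Reg3g. The enterocyte markers, several of which liver also expresses, summed to 335 FPKM there and to 136 to 290 in the other 5 libraries of point 3. Of 23 genes at over 4 times their level in any other library, 0 were among the genes tested. Without that library 169 genes were higher (1.4%) and 438 lower (3.63%), including 163 and 419 of those called with it. Insulin replicate 1 stood apart in several RNAs. CT010467.1, a ribosomal RNA sequence, was at 64800 FPKM against 3280 to 6660 in the other 5, the small nuclear RNA Rn7sk at 284 against 9.65 to 34.1, the nuclear noncoding RNA Malat1 at 112 against 25.6 to 37.5, and Lars2, which encodes a mitochondrial tRNA synthetase, at 1880 against 268 to 408. The 12 Kupffer cell markers summed to 150 to 202 FPKM in insulin and 208 to 232 in PBS, and the 12 liver endothelial markers to 86.5 to 94.9 and 95.8 to 125, so neither pair of ranges overlapped. Lower calls were 1 of 12 in each list, C1qc (-0.65, adjusted p = 0.0476) and Oit3 (-0.48, adjusted p = 0.0285); both ended with the GC correction (adjusted p = 0.502 and 0.15) and without insulin replicate 1 (0.138 and 0.0618), among other libraries. Marker sums of smooth muscle (10.2 to 13.5 FPKM in insulin, 14.7 to 17.1 in PBS) did not overlap either. Nor did those of exocrine pancreas (4.78 to 7.87 and 11.8 to 14.2, with 3 of 17 markers in the table), and 29.5% of all genes lay wholly below in insulin. Other sums overlapped, among them those of hepatocytes (53200 to 64100 in insulin, 63400 to 65800 in PBS) and cholangiocytes (17.4 to 21.6 and 20.3 to 26.5). Those of stellate cells and fibroblasts (96 to 131 and 119 to 136) overlapped too. The part of any of these cell types in the lower genes was not tested. Insulin replicate 2 was the highest insulin library for 190 of the 311 higher genes.

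Counts of list members are to be read against 2.58% higher and 8.74% lower over all genes. Of the 16 cyclic AMP and CREB targets 12 were tested, and 6 were higher and 0 lower. The 6 include Nr4a1 and Nr4a3, which passed the filter only through the insulin libraries. The median difference of the 12 was 0.77, beside -0.15 over all genes. Without insulin replicate 2 or PBS replicate 3 there were 4 higher, and with the GC correction 7. The list was chosen with these data known, so its count is a description. Promoters of the 3 members with the smallest adjusted p that the RefSeq table supplies, and that hold the CREB core TGACG, are shown first. They were chosen for holding that core, so its presence in them is no finding. The 250 bases before the transcription start are printed 5′ to 3′ on the gene's strand (RefSeq, GRCm38.p6), with capitals marking TGACG or its reverse complement CGTCA. The windows are chr5:51567726-51567975, minus strand, for Ppargc1a, chr4:48045055-48045304, plus strand, for Nr4a3, and chr15:101266596-101266845, plus strand, for Nr4a1.
Ppargc1a: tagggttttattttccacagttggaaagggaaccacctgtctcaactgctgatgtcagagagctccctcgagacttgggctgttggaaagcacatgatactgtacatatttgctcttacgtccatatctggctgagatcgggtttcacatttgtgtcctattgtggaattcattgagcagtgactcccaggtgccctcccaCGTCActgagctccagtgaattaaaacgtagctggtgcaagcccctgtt
Nr4a3: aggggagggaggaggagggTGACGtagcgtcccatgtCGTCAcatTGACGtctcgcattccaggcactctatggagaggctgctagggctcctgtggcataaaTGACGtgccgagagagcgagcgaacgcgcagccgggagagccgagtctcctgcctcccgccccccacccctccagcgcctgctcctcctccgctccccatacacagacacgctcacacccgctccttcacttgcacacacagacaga
Nr4a1: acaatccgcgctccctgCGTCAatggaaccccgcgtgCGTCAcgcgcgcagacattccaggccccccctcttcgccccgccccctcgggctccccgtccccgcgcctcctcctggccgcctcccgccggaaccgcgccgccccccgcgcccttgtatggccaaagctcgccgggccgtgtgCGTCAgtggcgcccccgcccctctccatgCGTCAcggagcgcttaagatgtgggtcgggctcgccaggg

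The Ppargc1a window holds 1 core, CGTCA, 49 bases before the start. The Nr4a3 window holds TGACG at 231, 205 and 147 bases and CGTCA at 213 bases before the start. The Nr4a1 window holds CGTCA at 233, 213, 69 and 40 bases before the start. Over the 300-base windows from 250 before to 50 after a start, TGACG on either strand stood in 31.7% of the 10122 promoters of the 7904 tested genes that matched. It stood in 128 of 266 promoters of genes called higher (48.1%) and in 248 of 1059 of genes called lower (23.4%). The whole element TGACGTCA, which contains the core on both strands, was in 3.07%, 7.52% and 2.46%. CACGTG, the E-box bound by clock factors, was in 10.2%, 12.4% and 10.8%. GC content differs between these groups of genes, and its part in the shares was not tested. A match is a run of letters, not a measured binding site.

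Ppargc1a, the coactivator PGC-1alpha that drives gluconeogenic and mitochondrial genes in fasting, was measured at 20.3, 17.5 and 13.2 FPKM in insulin replicates 1 to 3 and at 2.11, 1.71 and 1.74 in the PBS replicates. The lowest insulin library was over 6 times the highest PBS library. The difference was 2.64 (SE 0.15, adjusted p = 1.57e-11), the smallest adjusted p among the genes named here. The gene lies on chromosome 5 (51454250 to 51567726, minus strand, GRCm38).

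Nr4a1 and Nr4a3, orphan nuclear receptors that respond to cyclic AMP at once, also rose. Nr4a1 (chromosome 15, 101254269 to 101274795, plus strand) was at 5.34, 32.5 and 5.12 FPKM in insulin and at 0.721, 0.891 and 0.439 in PBS. The groups did not overlap, but insulin replicate 2 was about 6 times as high as the other insulin libraries; the difference was 2.71 (SE 0.37, adjusted p = 6.63e-05). Nr4a3 (chromosome 4, 48045153 to 48086447, plus strand) was at 3.74, 8.08 and 4.13 FPKM in insulin and at or below 0.0674 in every PBS library, with a difference of 2.53 (SE 0.31, adjusted p = 1.71e-05). The third member, Nr4a2, stayed below the filter, at 0.744, 6.21 and 1.25 FPKM in insulin and 0.125 FPKM in PBS replicate 1, with no value in the other PBS libraries.

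Crem, whose short products repress the same elements, rose from 8.28, 9.25 and 10.3 FPKM in PBS to 32.9, 61 and 41.3 in insulin, a difference of 2.12 (SE 0.30, adjusted p = 7.23e-05). Sik1, a kinase induced by cyclic AMP that restrains the CREB coactivators, was at 5.2, 27.9 and 4.85 FPKM in insulin and 2.19, 2.89 and 1.81 in PBS. Its difference of 1.64 (adjusted p = 0.0135) again had insulin replicate 2 far above the others, and the call ended without that library (adjusted p = 0.0895) or without PBS replicate 3 (adjusted p = 0.056). Dusp1, a phosphatase that switches off MAP kinases, was at 9.95, 16.5 and 12 FPKM against 6.47, 7.33 and 6.18 (difference 0.83, adjusted p = 0.0392). That call ended without 5 of the 6 libraries, insulin replicate 1 being the exception, with adjusted p up to 0.16 without insulin replicate 2. Neither glucose-producing member of the list passed the test: Pck1 (difference 0.01, adjusted p = 0.964) and G6pc (0.36, adjusted p = 0.433).

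Upstream of CREB, of 17 tested genes of glucagon, adrenergic and cyclic AMP signalling, 1 was higher and 2 were lower, with a median of -0.32. With the GC correction 1 was higher and 1 lower, and the median was 0.0. Beside 2.58% higher and 8.74% lower over all genes, such small counts are no result about the list, and its genes are given singly. Rgs16, which speeds the shut-off of G protein signals and is known in periportal hepatocytes as a fasting gene, showed the lowest difference of all genes that the naming rule took. It was at 4.78, 2.13 and 5.89 FPKM in insulin and 37.4, 29.8 and 52.4 in PBS, so every PBS library was at least 5 times every insulin library. The difference was -2.99 (SE 0.47, adjusted p = 0.000296). The glucagon receptor gene Gcgr fell by 0.50 (adjusted p = 0.0359), a call that ended with each single library left out, up to an adjusted p of 0.115 without insulin replicate 1, and with the GC correction (-0.11, adjusted p = 0.489). Pde3b, the phosphodiesterase through which insulin lowers cyclic AMP, rose by 0.45 (adjusted p = 0.0236), and this call ended without any library other than insulin replicate 1, with adjusted p up to 0.0924 without insulin replicate 2.

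The other genes with the highest differences came from several pathways, and all 12 of the rule's highest genes kept their call under each alternative setting in which they were tested (up to 16 settings). The rule required groups that do not overlap, so their separation is no finding. Nr4a1, Nr4a3, Atf3, Jaml and Chaf1b also passed the filter only through the insulin libraries, so their kept calls are a description. C9orf72, a regulator of endosomes and autophagy, was at 24.7, 67.9 and 20.1 FPKM in insulin and 4.08, 5.14 and 4.06 in PBS (difference 2.63, SE 0.35, adjusted p = 4.26e-05). It overlaps the pseudogene Gm12366 on the same strand, which was at 12.0 and 13.2 FPKM on average in insulin and PBS. Pmvk, phosphomevalonate kinase of the sterol pathway, was at 41.3, 56.9 and 21.7 FPKM against 4.96, 4.72 and 9.98 (difference 2.41, SE 0.45, adjusted p = 0.00194).

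Of 23 tested genes of sterol synthesis and uptake Pmvk was the 1 higher gene. Scap and Srebf2 were among the 3 lower genes, and all 3 calls ended with the GC correction and without insulin replicate 2 or PBS replicate 3. Without insulin replicate 1 there was 1 lower gene. Rcan1, an inhibitor of the phosphatase calcineurin, had closely spaced replicates, at 29.1, 29.8 and 31.1 FPKM against 6.88, 7.19 and 6.36. Its difference was 1.99 (SE 0.16, adjusted p = 2.75e-08). Of the 9 tested genes of the calcineurin list 1 other, the regulatory subunit Ppp3r1, was higher (0.37, adjusted p = 0.0396), and it lost its call without any library other than insulin replicate 1, with adjusted p up to 0.173 without insulin replicate 2.

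Trp53inp1, a p53-induced stress and autophagy protein, was at 111, 184 and 119 FPKM in insulin and 30.2, 29.5 and 39.7 in PBS (difference 2.00, SE 0.19, adjusted p = 8.88e-07). Of the 19 tested p53-linked and growth arrest genes 3 were higher and 2 lower, with a median of 0.07; 0 were lower without insulin replicate 2, and 1 with any other library left out. Gadd45g, a growth arrest gene, was at 40.3, 35.1 and 26.5 FPKM against 9.75, 10.9 and 8.47 (difference 1.69, SE 0.33, adjusted p = 0.00218). Plk3, a stress-responsive kinase, was at 33.6, 56.9 and 45.9 FPKM against 14, 12.7 and 14.3 (difference 1.63, SE 0.37, adjusted p = 0.00778). Trp53 itself, the p53 gene, fell by 0.76 (adjusted p = 0.0135), a call that ended with the GC correction (adjusted p = 0.0599) and without insulin replicate 2 (adjusted p = 0.07).

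Atf3, a stress-induced transcription factor, was at 2.17, 13.3 and 3 FPKM in insulin against 0.269, 0.743 and 0.345 in PBS (difference 1.98, adjusted p = 0.00194). It was the 1 higher gene among 16 tested immediate early genes, and it passed the filter only through the insulin libraries. The 1 lower gene, the AP-1 subunit Junb, was at 3.84, 7.72 and 6.38 FPKM against 12.7, 16.5 and 17.1 (difference -1.27, adjusted p = 0.0267). Its call ended with the GC correction (adjusted p = 0.13) and without insulin replicate 1, PBS replicate 2 or PBS replicate 3 (adjusted p = 0.117, 0.0786 and 0.0877).

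Chaf1b, a subunit of a histone chaperone, was at 2.88, 6.22 and 1.25 FPKM against 0.398, 0.0894 and 0.124 (difference 1.73, adjusted p = 0.00509). Its insulin libraries were thus spread widely, though each lay above the PBS libraries. Jaml, a junctional adhesion protein best known from leukocytes, was at 4.91, 7.9 and 2.14 FPKM in insulin and at 0.284 and 0.366 in PBS replicates 1 and 2, with no value in PBS replicate 3 (difference 2.19, adjusted p = 8.7e-05).

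**Figure D2:**
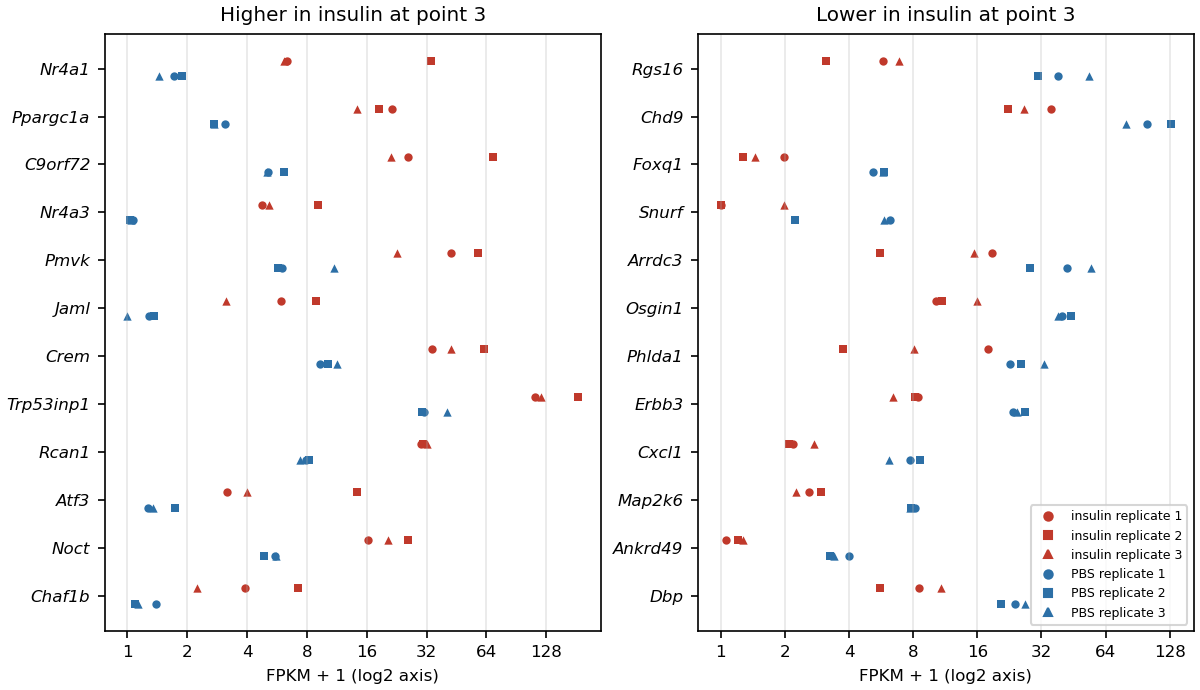
FPKM + 1 on a log2 axis in each of the 6 libraries of point 3, insulin in red and PBS in blue with a symbol per replicate, for the 12 genes with the highest and the 12 with the lowest differences that the naming rule took. For Nr4a1, C9orf72 and Atf3 insulin replicate 2 lies far to the right of the other insulin libraries, while for Rcan1 and Erbb3 the replicates lie close together.

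The lowest genes came from several pathways too. Chd9, a chromodomain helicase, was at 34.4, 21.3 and 25.6 FPKM in insulin and 98.6, 129 and 78.7 in PBS (difference -1.88, SE 0.32, adjusted p = 0.000646). Of the 22 tested remodellers of the CHD and SWI/SNF lists 3 were lower and 1, Chd1, was higher, from 6.55, 5.73 and 4.52 FPKM in PBS to 8.76, 16.3 and 11.1 in insulin (difference 0.96, adjusted p = 0.000798). Chd9 and Chd1 thus moved in opposite directions, and both kept their calls in every alternative setting. The other lower members, Smarca4 and Arid1a, lost theirs with the GC correction (adjusted p = 0.36 and 0.564), and 1 member was lower when replicate 2 or 3 of either treatment was left out.

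Erbb3, the receptor that pairs with other ErbB kinases to bind neuregulins, was at 7.41, 7.14 and 5.46 FPKM in insulin and 22.6, 25.7 and 23.6 in PBS. The difference of -1.71 (SE 0.18, adjusted p = 2e-06) had the smallest adjusted p of the 12 lowest genes. Egfr, its main partner in liver, stood at 51.1, 49.1 and 53.6 FPKM against 48.4, 51.5 and 52.9 (difference 0.01, adjusted p = 0.975). Of 15 tested genes of the ErbB, Met and FGF receptor list 3 were lower and 1 higher. Grb7, an adaptor that binds these receptors, fell by 0.70 (adjusted p = 0.00305; with the GC correction -0.35, adjusted p = 0.0599). Spry4, a feedback inhibitor, fell by 0.91 (adjusted p = 0.0209), and its call ended with the GC correction (adjusted p = 0.117) and without any library other than insulin replicate 2 (adjusted p up to 0.0867 without insulin replicate 1). The coreceptor for FGF hormones, Klb, was the higher member (0.47, adjusted p = 0.0317), and without any library other than insulin replicate 1 its call ended, with adjusted p up to 0.196 without insulin replicate 2.

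Map2k6, an upstream kinase of p38, was at 1.59, 1.95 and 1.26 FPKM against 7.15, 6.86 and 6.76 (difference -1.61, SE 0.20, adjusted p = 1.44e-05). Osgin1, an oxidative stress response gene, was at 9.2, 9.93 and 14.9 FPKM against 39, 42.9 and 37.4 (difference -1.75, adjusted p = 0.00116). Cxcl1, a neutrophil chemokine, was at 1.19, 1.09 and 1.75 FPKM against 6.76, 7.58 and 5.16 (difference -1.68, adjusted p = 0.00468). These 3 calls held in every alternative setting in which the gene was tested; Map2k6 and Cxcl1 were not tested at a mean of 5 FPKM or more. That was not so for Arrdc3, an arrestin-domain protein (-1.77, adjusted p = 0.0251), which lost its call without insulin replicate 2, PBS replicate 1 or PBS replicate 3 (adjusted p = 0.138, 0.0657 and 0.101). Phlda1 (-1.71, adjusted p = 0.0195) lost it without insulin replicate 2, PBS replicate 2 or PBS replicate 3 (adjusted p = 0.122, 0.0502 and 0.0761) and with the GC correction (0.136). Ankrd49 (-1.59, adjusted p = 0.0444) lost it without each single library, with adjusted p of 0.0776 to 0.114, the highest without insulin replicate 1. Snurf (-1.79, adjusted p = 0.00706) had no value in insulin replicates 1 and 2 and 0.973 FPKM in replicate 3, against 5.25, 1.24 and 4.82 in PBS. It shares its transcripts with Snrpn, at 1.95 and 2.85 FPKM on average, so its share of the reads is uncertain.

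Among transcription factors that define hepatocytes, 8 of 18 tested were lower and 1 higher, with a median difference of -0.46 beside -0.15 over all genes. The 8 include Foxq1, which passed the filter only through the PBS libraries, so its place in the count is a description. Without insulin replicate 2 or insulin replicate 3 there were 5 lower, and without insulin replicate 1, insulin replicate 3 or PBS replicate 3 there was no higher member. The GC content of the 8 lower genes had a median of 56.9%, in the quintile of genes of which 20.2% were called lower, and with the GC correction 5 members were lower. Foxq1, a forkhead factor, was at 0.979, 0.269 and 0.452 FPKM in insulin and 4.18, 4.84 and 4.8 in PBS (difference -1.86, SE 0.26, adjusted p = 7.23e-05; with the GC correction -1.51, adjusted p = 0.00132).

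The xenobiotic receptor CAR, Nr1i3, was at 36.6, 58.2 and 51.8 FPKM in insulin against 104, 94.8 and 89.7 (difference -0.99, adjusted p = 0.00186). Its partner Rxra was at 59.6, 53.7 and 56.7 FPKM against 92.6, 94 and 84.2 (difference -0.66, adjusted p = 0.0034). Both held in every alternative setting, at -0.73 and -0.29 with the GC correction. Lower members named after their values were seen were Cebpa (-0.91), Foxa3 (-0.72), Foxa2 (-0.66) and the oxysterol receptor Nr1h3 (-0.47), and the higher member was Onecut2 (0.50). Of these Cebpa kept its call with the GC correction and with any 1 library left out. Foxa3, Foxa2 and Nr1h3 lost theirs with the GC correction (adjusted p = 0.155, 0.465 and 0.596) and without insulin replicate 2 (0.07, 0.136 and 0.137), among other libraries. Hnf4a, the factor at the head of the hepatocyte network, did not pass the test, at 181, 149 and 181 FPKM against 209, 208 and 183 (difference -0.23, adjusted p = 0.204).

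Tight junction genes, whose products seal the bile canaliculi, had 5 of 12 tested members lower and 1, Jaml, higher, beside 8.74% and 2.58% of all genes. Their median was -0.33, beside -0.15. Jaml passed the filter only through the insulin libraries, so its place in the count is a description. Without insulin replicate 2, insulin replicate 3 or PBS replicate 2 there were 3 lower, and with the GC correction 2. Cldn3, a sealing claudin, was at 10.7, 10.8 and 10 FPKM in insulin and 28.2, 27.8 and 33.8 in PBS (difference -1.42, SE 0.23, adjusted p = 0.000495; with the GC correction -0.95). Occludin, Ocln, was at 1.6, 2.53 and 1.43 FPKM against 4.29, 7.14 and 6.6 (difference -1.29, SE 0.25, adjusted p = 0.00251). Ocln is a low-GC gene (42.0%), and its corrected difference was -1.36 (adjusted p = 0.000713). The scaffold protein Tjp3 (-1.14) and cingulin, Cgn (-0.79), were also lower. Tjp3 lost its call with the GC correction (adjusted p = 0.116) and without any library other than insulin replicate 2 (adjusted p up to 0.0805 without PBS replicate 2). Cgn lost its call with the GC correction (adjusted p = 0.0792) and without insulin replicate 2 (adjusted p = 0.0699). Tjp1 (-0.21, adjusted p = 0.241) and the hepatocyte claudins Cldn1 (-0.43, adjusted p = 0.249) and Cldn2 (0.02, adjusted p = 0.936) did not pass the test.

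**Figure D3:**
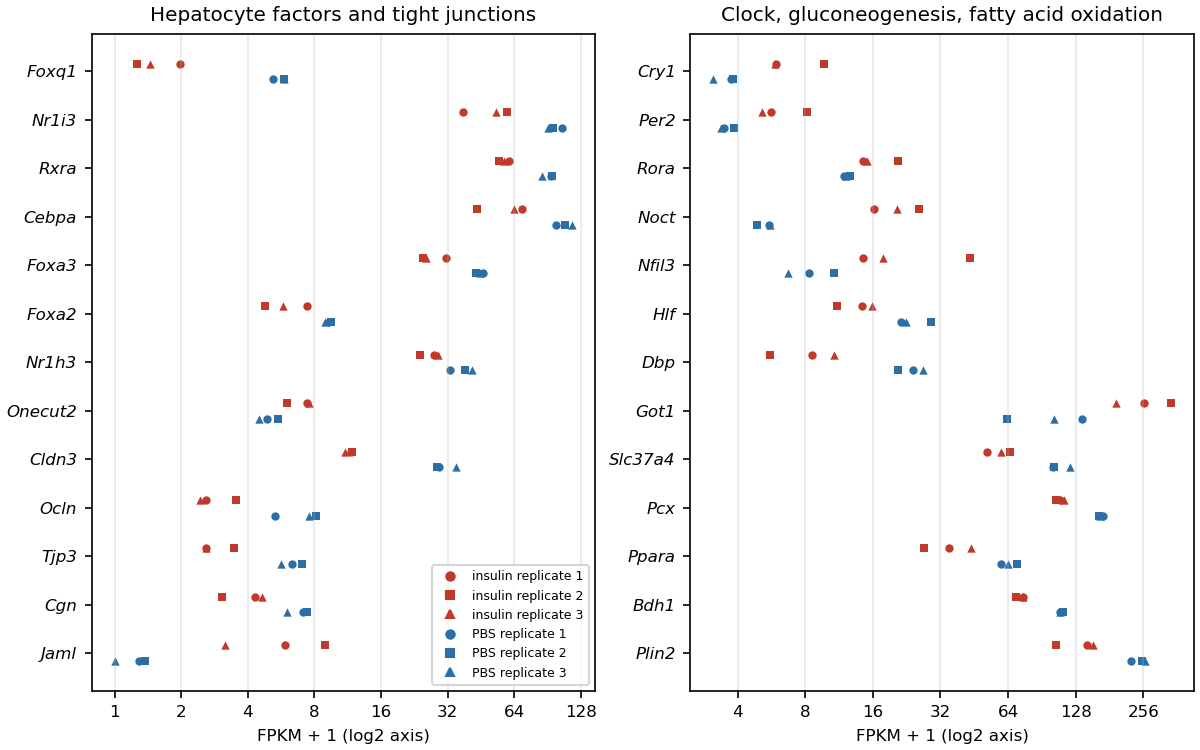
FPKM + 1 on a log2 axis in the 6 libraries of point 3 for called genes of 6 lists that are named in the text, insulin in red and PBS in blue with a symbol per replicate. Left, hepatocyte transcription factors and tight junction genes, of which Onecut2 and Jaml are higher in insulin; right, clock genes, gluconeogenesis and fatty acid oxidation, where the higher genes are Per2, Cry1, Rora, Nfil3, Noct and Got1.

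The textbook targets of insulin in liver described here did not pass the test at point 3 in the model over 30 libraries. Igfbp1, which Foxo1 drives when insulin is absent, was at 124, 183 and 158 FPKM in insulin and 58.8, 57 and 60.9 in PBS, a difference of 1.37 (SE 0.55, adjusted p = 0.0986), with every insulin library above every PBS library. It did pass when the 6 libraries of point 3 were fitted alone (adjusted p = 0.00564), and in none of the other alternative settings. Irs2, an insulin receptor substrate, was at 2.04, 12.7 and 2.66 FPKM against 3.09, 3.54 and 2.24 (difference 0.45, adjusted p = 0.457), with insulin replicate 2 alone above PBS. Srebf1, the lipogenic factor, had a difference of -0.12 (adjusted p = 0.779).

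Within insulin receptor signalling, 2 of 22 tested genes were higher and 1 lower, with a median of -0.02 that turned to 0.13 with median-ratio scaling, 0.12 with quantile normalization and 0.09 with the GC correction. Pik3r1, the regulatory subunit of PI3K, rose by 0.63 (adjusted p = 0.024), and Foxo1, the factor that Akt excludes from the nucleus, rose by 0.52 (adjusted p = 0.0325). Both lost their calls without insulin replicate 2 (adjusted p = 0.111 and 0.203) and without PBS replicate 1 (0.075 and 0.0763), Pik3r1 also without PBS replicate 2 (0.0724) and Foxo1 without PBS replicate 3 (0.125). Tsc1, a brake on mTORC1, fell by 0.49 (adjusted p = 0.0128), but not with the GC correction (-0.27, adjusted p = 0.266) or without insulin replicate 2 or PBS replicate 2 (adjusted p = 0.0768 and 0.0683).

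In gluconeogenesis and glucose release 4 of 15 tested genes were lower and 1 higher, with a median of -0.32. With the GC correction 1 was lower and 1 higher, and 2 were lower when replicate 1 or 3 of either treatment was left out. The higher gene was Got1, the cytosolic aspartate aminotransferase, at 256, 338 and 192 FPKM in insulin and 136, 62 and 101 in PBS (difference 1.42, SE 0.25, adjusted p = 0.00107). Slc37a4, which carries glucose 6-phosphate into the endoplasmic reticulum, was at 50.6, 64.2 and 58.4 FPKM against 100, 101 and 120 (difference -0.88, adjusted p = 0.00309; with the GC correction -0.56, adjusted p = 0.0075). Pcx, pyruvate carboxylase, fell by 0.60 (adjusted p = 0.00859), and not with the GC correction (-0.21, adjusted p = 0.146).

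Among enzymes and carriers of amino acids and nitrogen, the genes below differed. Agxt, an aminotransferase that converts glyoxylate and serine, was at 400, 308 and 248 FPKM in insulin against 128, 109 and 140 (difference 1.32, SE 0.24, adjusted p = 0.00112). Slc25a15, the mitochondrial ornithine carrier and 1 of 8 tested urea cycle genes, was at 222, 206 and 187 FPKM against 107, 102 and 116 (difference 0.91, SE 0.11, adjusted p = 2.24e-05). It was the 1 urea cycle gene called. Of 25 amino acid catabolism genes 2 were higher and 4 lower. With the GC correction 1 was higher and 0 lower, and with any 1 library left out 1 was higher and 1 (without PBS replicate 3) or 2 were lower. Among the lower genes Bcat2, which starts branched-chain amino acid breakdown, fell by 0.90 (adjusted p = 0.00801; with the GC correction -0.61, adjusted p = 0.0656).

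The 23 tested fatty acid oxidation genes had a median of -0.27, beside -0.15 over all genes. It was -0.1 with median-ratio scaling, -0.16 with quantile normalization and -0.13 with the GC correction. Of these genes 3 were lower and 0 higher, and the same number was lower with the GC correction. With 8.74% of all genes lower, that count is no result about the list, and its genes are given singly. Ppara, the fasting-activated receptor that drives the pathway, was at 33.8, 26 and 42.6 FPKM in insulin and 58.7, 69.4 and 63.2 in PBS (difference -0.91, SE 0.15, adjusted p = 0.000646). Bdh1, the ketone body dehydrogenase, was at 73.8, 68.5 and 73.7 FPKM against 108, 111 and 108 (difference -0.59, adjusted p = 0.00271). Plin2, a lipid droplet coat protein, was at 143, 104 and 151 FPKM against 224, 252 and 259 (difference -0.89, adjusted p = 0.0126; without insulin replicate 2 adjusted p = 0.0713). In fatty acid synthesis 1 of 18 tested genes was called, Acly, ATP citrate lyase, which rose by 0.55 (adjusted p = 0.00733; without insulin replicate 2 adjusted p = 0.0504).

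Several clock genes moved, in both directions. Of 13 tested core clock genes 3 were higher and 3 lower; 1 was higher without insulin replicate 2 or PBS replicate 3 and 1 lower without insulin replicate 1 or PBS replicate 2, and with the GC correction 4 were higher and 0 lower. The 3 lower genes include Per3, which passed the filter only through the PBS libraries. Cry1, a repressor of the loop, was at 4.94, 8.74 and 4.88 FPKM in insulin against 2.76, 2.8 and 2.12 (difference 0.98, SE 0.18, adjusted p = 0.00159). Per2, its partner, was at 4.63, 7.16 and 4.16 FPKM against 2.5, 2.85 and 2.39 (difference 0.79, adjusted p = 0.0164), and lost its call without insulin replicate 2 or PBS replicate 3 (adjusted p = 0.0966 and 0.0596).

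Among 12 clock output genes 2 were higher and 2 lower. Noct, a phosphatase of nicotinamide cofactors under clock control, was at 15.2, 24.8 and 19.5 FPKM against 4.53, 3.88 and 4.59 (difference 1.94, SE 0.31, adjusted p = 0.000383). Nfil3, a repressor at D-box elements, was at 13.4, 42.5 and 16.7 FPKM against 7.29, 9.74 and 5.71 (difference 1.41, adjusted p = 0.00209). The activators of the same elements were lower: Hlf by -0.82 (adjusted p = 0.00778) and Dbp by -1.57 (adjusted p = 0.0334). The Hlf call ended without insulin replicate 2 or PBS replicate 2 (adjusted p = 0.052 and 0.0513). Dbp was at 7.55, 4.59 and 9.77 FPKM against 23.1, 19.7 and 25.8. Its call ended with the GC correction (-1.11, adjusted p = 0.194) and without any library other than insulin replicate 3, with adjusted p up to 0.127 without insulin replicate 2. Dbp overlaps Sphk2 on the other strand, which was at 5.95 and 13.6 FPKM on average, and the strand setting of the counting is not given in the sources used here.

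Of 22 genes of the Socs, Stat3 and acute phase list 2 were lower and 0 higher, near the 8.74% of all genes that were lower, or 1 lower without insulin replicate 1, insulin replicate 2 or PBS replicate 2. Il6ra, the interleukin 6 receptor, was at 13.4, 13.5 and 11.9 FPKM in insulin and 27.1, 27.6 and 23.3 in PBS (difference -0.95, SE 0.13, adjusted p = 5.76e-05). Fkbp5, a cochaperone and glucocorticoid receptor target, was at 53.6, 48.2 and 48.8 FPKM against 89.7, 96.9 and 102 (difference -0.93, SE 0.16, adjusted p = 0.000977). In the unfolded protein and ATF4 list 3 of 17 were lower and 3 higher. Trib3, a pseudokinase that binds Akt, fell by 1.09 (adjusted p = 0.00218), a call kept in the 15 alternative settings in which it was tested. The 3 higher members depended on single libraries: without insulin replicate 2, insulin replicate 3, PBS replicate 1 or PBS replicate 3 there were 0 higher, without PBS replicate 2 there was 1, and without insulin replicate 2 or PBS replicate 2 1 was lower.

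**Figure D4:**
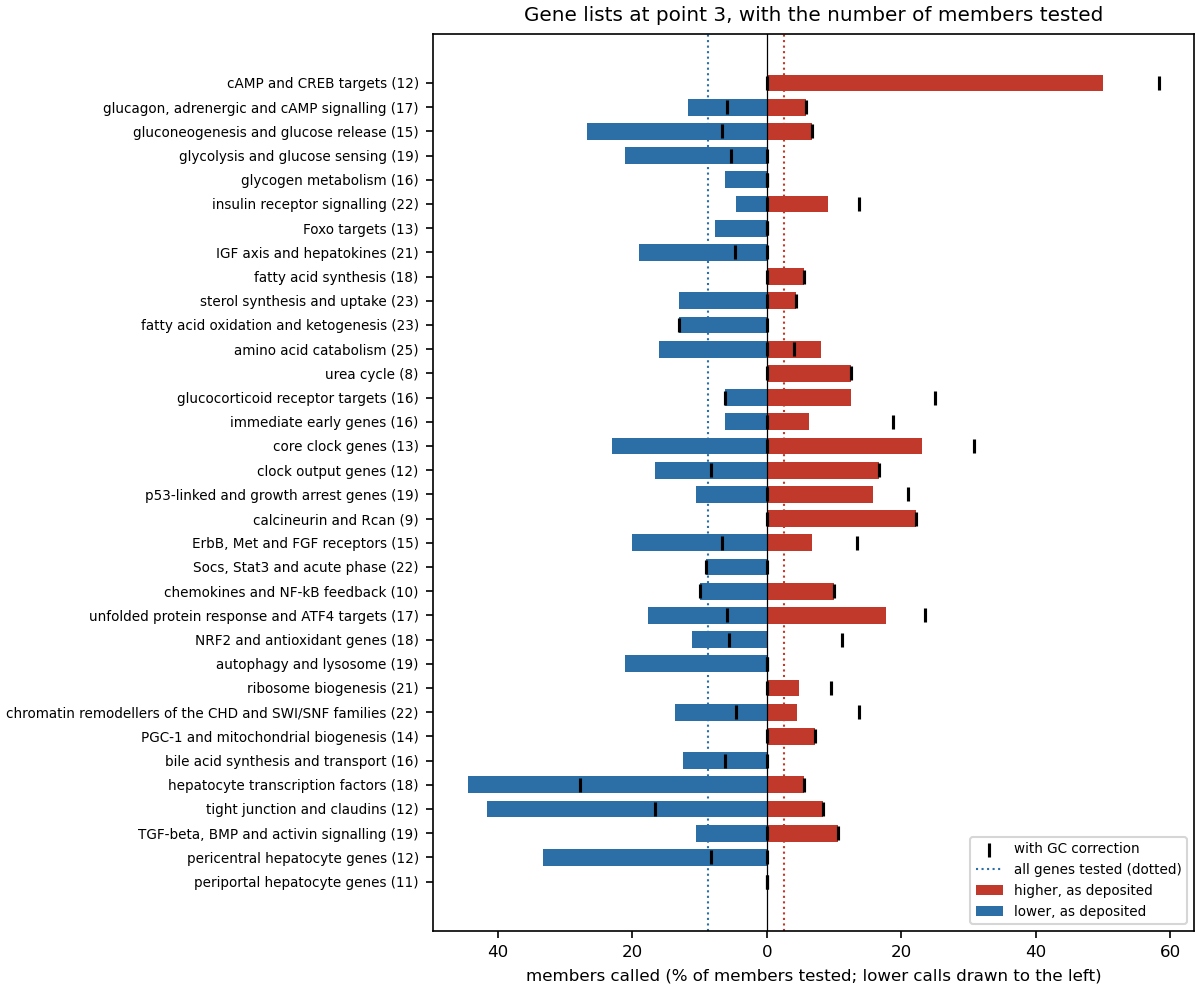
Share of tested members called higher (red, right) and lower (blue, left) in insulin at point 3 for each gene list, with the number of members tested in brackets, black ticks for the shares after the GC correction and dotted lines for all genes (2.58% and 8.74%). The cyclic AMP and CREB list reaches furthest right (6 of 12) and the hepatocyte transcription factors furthest left (8 of 18, and 5 of 18 after the correction).

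Some calls above also ended under settings that keep every library. With median-ratio scaling these were Ankrd49, Arid1a, Dbp, Foxa2, Foxa3, Gcgr, Nr1h3, Scap, Srebf2 and Tsc1, with adjusted p from 0.0566 for Foxa3 to 0.15 for Scap. With the 6 libraries of point 3 fitted alone they were Foxo1, Klb, Nfil3, Nr1h3, Onecut2, Phlda1, Ppp3r1, Sik1, Srebf2 and Tsc1, with adjusted p from 0.0516 for Nr1h3 to 0.134 for Ppp3r1. With no filter on low values, which adds genes to the adjustment, calls that ended included those of Arrdc3, Phlda1, Ankrd49, Dbp, Gcgr, Pik3r1, Foxo1, Scap, Srebf2, Dusp1, Junb, Ppp3r1, Spry4, Klb and Smarca4.

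The comparison was set beside points 2 and 4, which share no library with it. Of the 311 higher genes 51 were also higher at point 2 (16.4%, and 67.1% of the 76 higher there, which were 0.631% of all genes) and 164 at point 4 (52.7%, and 42.4% of 387, 3.21% of all genes). Of the 1053 lower genes 63 were lower at point 2 (5.98%, and 60.6% of 104, 0.863% of all genes) and 550 at point 4 (52.2%, and 39.0% of 1409, 11.7% of all genes). The difference itself, tested as an interaction in limma, departed from that at point 2 for 12 genes (0.0996%) and from that at point 4 for 10 (0.083%). For point 2 this number was 21 without insulin replicate 2 and 6 without PBS replicate 3. For point 4 it was 3, 3 and 5 without insulin replicates 1, 2 and 3, and 4, 3 and 6 without PBS replicates 1, 2 and 3. The GC tilt at point 4 was -0.31 to 0.0 in insulin libraries and 0.16 to 0.42 in PBS libraries. At point 2 it was -0.25 to -0.13 in insulin libraries, 0.26 and 0.17 in PBS replicates 2 and 3, but -0.18 in PBS replicate 1. From the lowest to the highest GC quintile the median difference went from 0.02 to -0.26 at point 2 and from 0.08 to -0.36 at point 4.

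Ppargc1a had the smallest adjusted p of these: its difference was -0.24 (SE 0.15) at point 2, 2.64 at point 3 and 1.44 (SE 0.15) at point 4. Point 3 exceeded point 2 by 2.88 (SE 0.21, adjusted p = 5e-09), and this held in each of the 11 alternatives tried. It exceeded point 4 by 1.20 (SE 0.21, adjusted p = 0.0161), which was lost when PBS replicate 2 or either of insulin replicates 1 and 2 was left out (largest adjusted p = 0.0761). Rcan1 was higher at points 2 and 3 (1.78 and 1.99) and less so at point 4 (0.80), but the step from point 3 to 4 (adjusted p = 0.0389) was lost with each single library left out (adjusted p up to 0.123). Angptl4, an inhibitor of lipoprotein lipase raised by fasting, was at 49.9, 53.2 and 64.3 FPKM in insulin and 77.9, 103 and 88.8 in PBS at point 3 (difference -0.68, adjusted p = 0.00484). At point 2 its difference was -1.89, and the change of 1.21 between the points passed the test (SE 0.20, adjusted p = 0.00817) and held in the 11 alternatives.

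**Figure D5:**
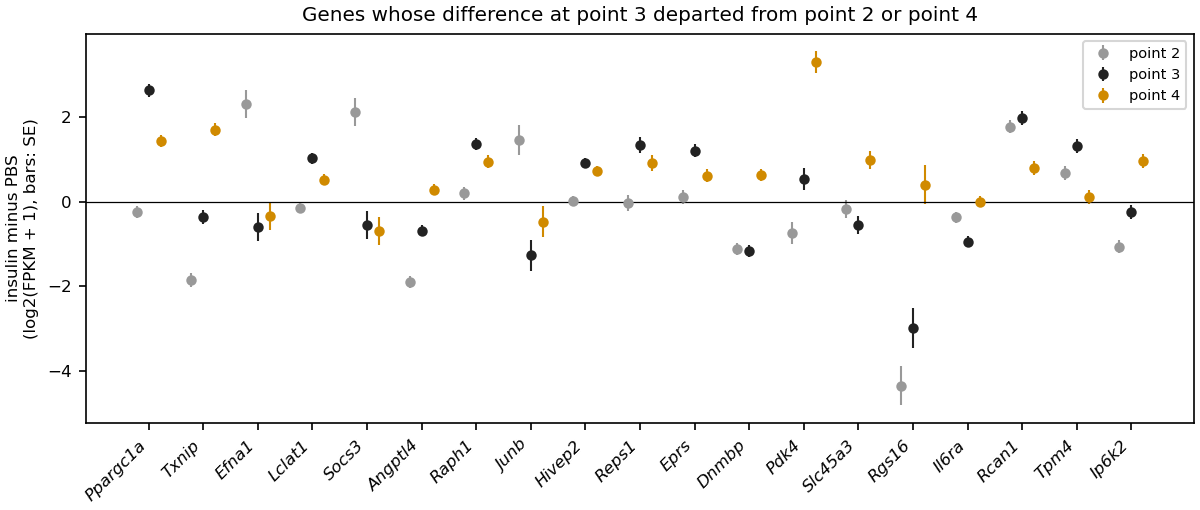
Insulin minus PBS on the log2(FPKM + 1) scale at points 2, 3 and 4 (points, with SE bars from the limma fit) for named genes whose difference at point 3 departed from that at point 2 or 4. Ppargc1a goes from -0.24 to 2.64 and 1.44, and Angptl4 from -1.89 to -0.68 and 0.29.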

How the data were processed

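Each library was made from liver RNA with poly(A) selection and a directional kit, per the labels' protocols. HISAT2 2.1.0, SAMtools 1.9, StringTie 2.0.3 and the build GRCm38 (mm10) are listed per the submitters' processing notes, while the annotation and the strand setting were not given in the sources used here. FPKM values were deposited, scaled by the authors to transcript length and library size. Depth is not given and was not recovered: at the best step only 38.5% to 47.5% of low values of single-transcript genes were whole reads within 0.05. So no interval from counting was possible. Blank cells (31.7% at point 3) were set to 0, which touched 134 tested genes, and no cell held exactly 0.

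Sample titles gave treatment, replicate (the number with 3 levels) and point (the number with 5 levels). All 30 libraries were fitted on log2(FPKM + 1) with limma 3.58.1 in R 4.3.3, as 10 group means with an intensity trend, so all groups share the spread; p-values are Benjamini-Hochberg adjusted over the 12051 genes tested. The labels name biological triplicates, but no animal numbers, and where libraries share an animal the p-values cover only the spread between libraries. The genes named are 6 textbook targets, the 12 highest and 12 lowest called genes that do not overlap between groups and have a mean of 1 FPKM or more and a proper symbol, up to 4 called members per list by adjusted p, intestinal markers, and up to 6 per interaction. Others, such as further list members, CT010467.1, Rn7sk, Malat1, Lars2 and genes given with the tests between points, were named after their values were seen, and some genes that the rule takes are not reported here. The members and lists were chosen with earlier results of these data known, so lists are described by counts and medians, with no test. Positions, GC and length came from GENCODE M21 (GRCm38). Alternatives were a pseudocount of 0.1, other filters (none, a mean of 5 FPKM, all 30 libraries), median-ratio and quantile scaling, a replicate block, lane as a random effect, only the 6 libraries, each library left out and, added later, a GC correction by lowess of each library's deviations. The fit was tested on simulated data with known changes, placed in genes at a mean of 5 FPKM or more. The simulated noise was independent between libraries, with no GC tilt, lane effect or outlying library, so that test does not speak to these.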

Additional observations from a re-analysis of the deposited data

Results flagged for a closer look

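Each result below is a gene whose insulin minus PBS difference at point 3 departed from its difference at point 2 or point 4 by the limma interaction test, so the sampling points differed for it. Values are on the log2(FPKM + 1) scale, and most of these genes were named after their values were seen. Both tests covered 12051 genes, of which 12 and 10 passed.

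Against point 2, Ppargc1a was higher by 2.88 (adjusted p = 5e-09). Txnip, a thioredoxin inhibitor that limits glucose uptake, departed by 1.5 (adjusted p = 0.00385): its difference was -1.85 at point 2, -0.36 at point 3 and 1.71 at point 4. Efna1, a ligand of Eph receptors, departed by -2.91 (adjusted p = 0.00663), from 2.31 at point 2 to -0.60. Socs3, a feedback inhibitor of cytokine and insulin signals, departed by -2.69 (adjusted p = 0.00817), from 2.13 to -0.55. Efna1 and Socs3 thus were called higher at point 2 and did not pass the test at point 3. Lclat1, an acyltransferase of cardiolipin, was higher by 1.17 (adjusted p = 0.00663), at 30.2, 20.7 and 24.9 FPKM in insulin and 11.7, 11.7 and 11.9 in PBS at point 3. Angptl4 departed by 1.21 (adjusted p = 0.00817). These 6 departures held in each of 11 alternatives, with the largest adjusted p at 0.0434 for Socs3.

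The departures from point 2 below did not hold with some libraries left out. Junb departed by -2.74 (adjusted p = 0.0206), from 1.47 to -1.27, and failed without insulin replicate 1, PBS replicate 2 or PBS replicate 3. Raph1 departed by 1.17 (adjusted p = 0.0206) and failed without insulin replicate 1, PBS replicate 1 or PBS replicate 3. Hivep2 departed by 0.89 and Reps1 by 1.37 (both adjusted p = 0.0275), and Eprs, the glutamyl-prolyl tRNA synthetase, by 1.10 (adjusted p = 0.0387). These last 3 failed without 4 or 5 single libraries, with adjusted p up to 0.122, 0.102 and 0.157.

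Against point 4, Dnmbp, a scaffold for membrane and actin remodelling, departed by -1.80 (adjusted p = 1.31e-05): it was at 3.86, 3.69 and 4.57 FPKM in insulin against 10.8, 11.7 and 8.43 in PBS, so the difference was -1.16 at point 3 and 0.64 at point 4. Txnip departed by -2.06 (adjusted p = 1.31e-05). Pdk4, the kinase that shuts pyruvate dehydrogenase in fasting, departed by -2.77 (adjusted p = 0.000252), with a difference of 0.53 at point 3 and 3.30 at point 4. These 3 held in each of 11 alternatives.

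Ppargc1a departed from point 4 by 1.20 (adjusted p = 0.0161). Rgs16 departed by -3.40, Slc45a3 by -1.53, Il6ra by -0.95, Rcan1 by 1.19, Tpm4 by 1.20 and Ip6k2 by -1.21, all at an adjusted p of 0.0389. Each of these 6 failed without 5 or 6 of the 6 single libraries of point 3, with adjusted p up to 0.194 for Rgs16.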

How the results depend on the processing

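The 1364 calls became 810 with no filter on low values, 654 with the GC correction and 607 to 890 with a library left out. The 311 higher genes became 704 with median-ratio scaling, 735 with quantile normalization and 156 to 286 with a library left out. The 1053 lower genes became 551 with no filter, 517 and 564 with the 2 scalings, 249 with the GC correction and 438 to 687 with a library left out. The genes that departed from point 2 numbered 21 with the GC correction and 6 to 21 with a library left out, and those that departed from point 4 numbered 5 with no filter and 3 to 6 with a library left out. Of the 104 called genes named by the rule, 39 kept their call under all 16 alternatives, 41 lost it with the GC correction and 57 with at least 1 library left out.

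No called gene named by the rule changed sign. Of the list medians printed, that of insulin receptor signalling (-0.02) was above 0 with both scalings and the GC correction (0.09 to 0.13) and without PBS replicate 1 (0.01). Among genes that did not pass the test, Srebf1 was 0.03 with median-ratio scaling or quantile normalization, 0.29 with the GC correction and -0.32 to 0.03 with a library left out. With a library left out Pck1 ranged from -0.14 to 0.15 and Irs2 from -0.23 to 0.85. The cause was not tested.

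With the replicate number as a block, 1653 genes were lower and 383 higher, and 0 calls of named genes ended. Same-numbered libraries at point 3 had correlations of their deviations of 0.01, 0.13 and 0.12. So not every pair was over 0.1, and they share only a number. Replicates 2 and 3 correlated best with their own number. Insulin replicate 1 was at 0.01 with PBS replicates 1 and 3 alike and at -0.02 with PBS replicate 2. Depth is unknown, so precision at low FPKM is not known from counting.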

Other observations

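Other gene groups are given as counts for point 3, beside 2.58% higher and 8.74% lower over all genes. Autophagy and lysosome genes had 4 of 19 lower and 0 higher, among them Ulk1, the kinase that starts autophagy (-0.65, adjusted p = 0.0175; without PBS replicate 2 adjusted p = 0.0662). With the GC correction 0 were lower, and with any 1 library left out 1 or 2. Pericentral hepatocyte genes had 4 of 12 lower, including Axin2, which passed the filter only through the PBS libraries. With the GC correction 1 was lower, and with any 1 library left out 1 or 2. Tbx3, a Wnt target among them, was at 1.5, 2.92 and 2.59 FPKM in insulin and 5.54, 5.49 and 5.05 in PBS (difference -0.96, adjusted p = 0.00819; without insulin replicate 1 adjusted p = 0.0522).

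In the TGF-beta, BMP and activin list 2 of 19 were higher and 2 lower, and without any library other than insulin replicate 2 there were 0 lower. Without insulin replicate 2 or PBS replicate 3 there was 1 higher. Skil, a repressor of Smad transcription, was at 5.98, 18.1 and 5.29 FPKM in insulin and 2.88, 3.37 and 2.63 in PBS (difference 1.26, adjusted p = 0.00553), and insulin replicate 2 was again the highest; with the 6 libraries of point 3 fitted alone adjusted p was 0.0742. The 13 mitochondrially encoded mRNAs had a median difference of 0.23, and 0 were called, also with any 1 library left out. Their median GC was 37.1%, in the quintile of genes with the lowest GC, whose median difference was 0.09.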
